A study of Mus musculus with 24 samples.

Results

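The suppressor of cytokine signalling (SOCS) family was followed in mouse CD8+ T cells before and during activation in culture. Its 8 members, Cish and Socs1 to Socs7, were taken by gene symbol from tables of 23420 genes, and all 8 were among the 11470 genes that passed the filter on low counts. The series compared cells labelled Tcf7 conditional knockout (cKO, mice 1 to 3), which carried E8i-cre+ together with Tcf7FL/FL and OTI+, with cells labelled wildtype (WT, mice 4 to 6), which were E8i-cre- and otherwise alike. Every mouse gave 1 library at 0, 4, 8 and 24 h. Tcf7 encodes the transcription factor TCF1. Animals of both genotypes therefore had floxed Tcf7 and the transgenic OT-I T cell receptor, and the E8i element drives cre in CD8 T cells. The cre transgene and the loss of Tcf7 cannot be told apart in this design. The 0 h cells came straight from CD8 microbead selection of spleen and lymph node, whereas the 4, 8 and 24 h cells had been on wells carrying antibodies to CD3 and CD28 (1 ug/mL) in medium with mouse IL2 (6 ng/mL). Comparisons with 0 h thus change culture, the antibodies and IL2 together, and these cannot be told apart. Each library was made from 1000 sorted cells with Smart-Seq2, which copies whole transcripts and has no molecular identifiers.

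SOCS proteins are induced by cytokines and switch off the receptors that induced them. Each has an SH2 domain that binds a phosphorylated receptor or kinase and a SOCS box that recruits elongins, a cullin and a RING protein into a ubiquitin ligase, and SOCS1 and SOCS3 can also block the catalytic site of JAK kinases. In CD8 T cells CIS, the product of Cish, restrains signalling of the T cell receptor and is induced by IL2 through STAT5, SOCS1 restrains responses to interferon gamma and to cytokines that use the common gamma chain, and SOCS3 binds gp130 and restrains the response to IL6.

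Libraries held 5846265 to 9700397 expected counts, and 13694 to 17214 genes had a count. Some libraries stood apart within their time on the first principal component of the most variable genes tested. At 4 h this was cKO mouse 3 (−21.3, others −15.5 to −12.9), and at 8 h it was cKO mouse 2 (15.4) and WT mouse 5 (16.4, others 4.41 to 9.83). Results at 4 and 8 h were recomputed without them, which ended 1 call of a member, that of Cish from 8 to 24 h in cKO. RNA of the whole Tcf7 gene was at 681 to 719 TPM in cKO and 499 to 567 TPM in WT at 0 h and at 35.7 to 38.3 against 62.6 to 77.0 TPM at 24 h. These counts include parts outside the floxed region and do not check the deletion, so groups are named by their labels. The 8 CD8 T cell identity genes were detected in every group, and their summed level went from 6754 to 7775 TPM at 0 h to 1431 to 1685 TPM at 24 h. Summed markers of myeloid cells (at most 2.95 TPM), NK cells (at most 1.59 TPM) and dendritic cells (at most 6.85 TPM) were low at all times, and B cell markers were at 33.2 to 53.3 TPM at 0 h, nearly all of it Cd79b, and at 1.22 to 18.4 TPM later. The 4 CD4 T cell markers, led by Cd40lg, which activated T cells also express, summed to 4.80 to 9.14 TPM at 0 h, 59.1 to 89.7 TPM at 4 h, 18.3 to 32.5 TPM at 8 h and 3.36 to 6.89 TPM at 24 h. In bulk RNA fewer cells of a type and less RNA per cell cannot be told apart, and all values are shares of a library's RNA.

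The composition of the family turned over within 4 h. Levels are given in TPM, a gene's share of a library's transcripts after scaling to transcript length, which allows genes to be compared. At 0 h the 8 members summed to 91.9 ± 5.15 TPM (SD, n = 3) in WT and 95.6 ± 13.9 TPM in cKO. The sum was 454 ± 30.8 TPM in WT and 462 ± 4.30 TPM in cKO at 4 h, 255 ± 31.7 against 309 ± 22.6 TPM at 8 h, and 196 ± 10.6 against 232 ± 10.3 TPM at 24 h. Socs3 was the most abundant member at 0 h, with a median of 56.4% of the family's TPM in WT and 52.2% in cKO. From 4 h on Cish led, with medians of 58.2, 65.8 and 49.5% in WT and of 72.8, 59.1 and 55.7% in cKO at 4, 8 and 24 h. Socs1 was in second place in all 8 groups, although at 0 h in WT its range (8.58 to 16.2 TPM) overlapped that of Socs6 (8.23 to 11.1 TPM). By 24 h Socs3 had dropped to the sixth place and Socs4 held the third. Socs2 was last up to 8 h and took the fourth place at 24 h, where its range overlapped that of Socs6. Other neighbours whose ranges overlapped were Socs5, Socs4, Cish and Socs7 in WT at 0 h, Socs6, Cish, Socs4 and Socs5 in cKO at 0 h, and Socs4, Socs3 and Socs6 at 8 h in both genotypes. Socs5 and Socs7 overlapped in both genotypes at 4, 8 and 24 h, Socs4 and Socs6 in WT at 4 h, and Socs6 and Socs3 in cKO at 24 h.

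**Figure D1:**
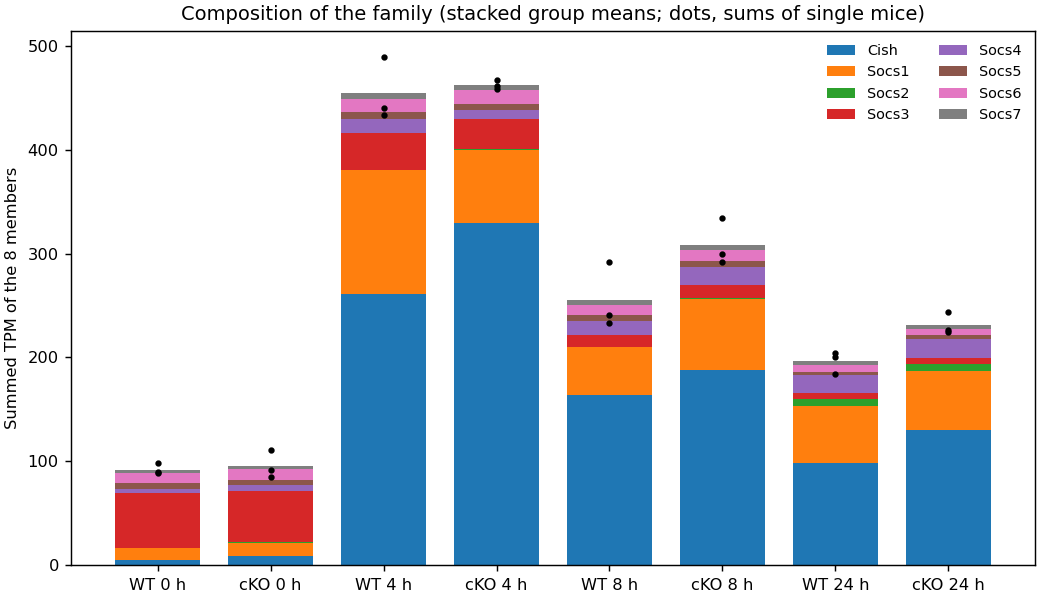
Summed TPM of the 8 members in each genotype and time group. Coloured segments are means of 3 mice stacked by gene and dots are the sums in single mice. Socs3 takes the largest segment at 0 h and Cish at 4, 8 and 24 h, and the summed mean is highest at 4 h (454 TPM in WT and 462 TPM in cKO).

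Change over time was tested on counts with edgeR's quasi-likelihood test, and "called" means an adjusted p below 0.05, with the adjustment made over 11470 genes. In WT, 6 members rose from 0 to 4 h (Cish, Socs1, Socs4, Socs5, Socs6 and Socs7) and Socs3 fell, where 30% of all genes tested were called higher and 29.1% lower, and the members' median log2 fold change was 0.58 against −0.04 for all genes. From 4 to 8 h none rose and 3 fell (Cish, Socs1 and Socs3), beside 21.9% higher and 19.7% lower of all genes. Socs2 is left out of the counts that involve 24 h, since it passed the filter on low counts only through the 24 h libraries and had to differ there. Of the other 7 members none rose from 8 to 24 h and 5 fell (Cish, Socs3, Socs5, Socs6 and Socs7), beside 24.7% and 34.1%. Over the whole 24 h in WT Cish, Socs1 and Socs4 were higher than at 0 h and Socs3, Socs5 and Socs6 lower, beside 36.9% and 40.1%.

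In cKO, 5 members rose from 0 to 4 h (Cish, Socs1, Socs4, Socs6 and Socs7) and Socs3 fell, where the shares over all genes were 29.6% for higher and 27.6% for lower, and the median was 0.76 against −0.002. From 4 to 8 h Socs4 rose and Cish and Socs3 fell, beside 20.8% and 19.6%. From 8 to 24 h none of the 7 rose and 5 fell, those that fell in WT, beside 25.2% and 32.1%. At 24 h 4 members were higher than at 0 h (Cish, Socs1, Socs4 and Socs7) and 2 were lower (Socs3 and Socs6), beside 37.3% and 39%. With most genes tested called over 24 h, the share of members called lies near the background, and the members are described below by the size and time of their changes.

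**Figure D2:**
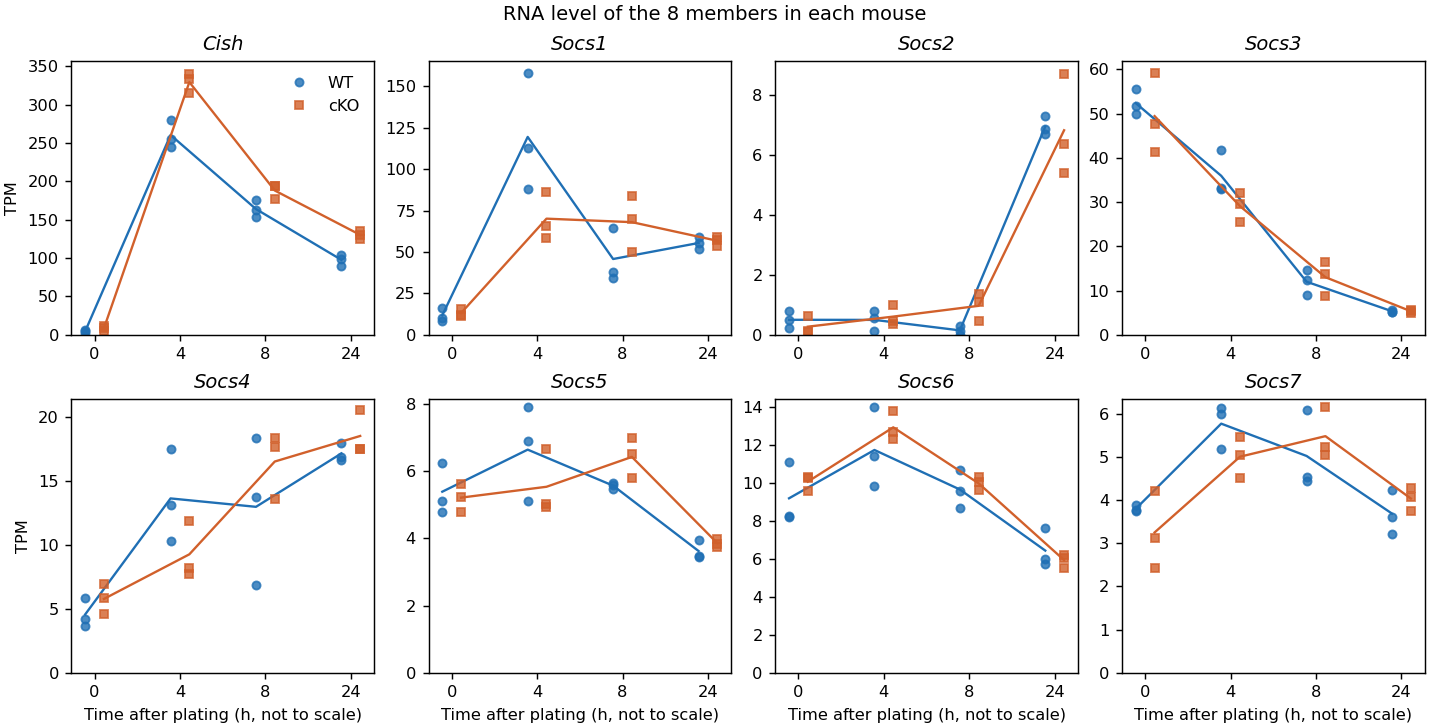
TPM of each member in every library, with a panel for each gene and its own axis from 0. Circles are WT mice, squares are cKO mice, lines join the means of 3 mice, and the time axis is not to scale. Cish and Socs1 peak at 4 h in WT, Socs3 falls at each step, Socs4 climbs, and Socs2 stays under 1.5 TPM until it appears at 24 h.

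Cish (chromosome 9, 107296026 to 107302784, plus strand, GRCm38) had the largest induction of the family. In WT mice 4, 5 and 6 it was at 1.98, 4.76 and 6.54 TPM at 0 h, 280, 256 and 245 TPM at 4 h, 175, 153 and 163 TPM at 8 h, and by 24 h 104, 99.1 and 90.0 TPM. In cKO mice 1, 2 and 3 it was at 9.34, 11.9 and 4.36 TPM, then 315, 340 and 334 TPM, then 177, 193 and 194 TPM, and then 136, 131 and 125 TPM. No library of a later time overlapped those of 0 h, and within each genotype the 4, 8 and 24 h libraries followed each other downwards without overlap. The rise to 4 h was 61.5-fold in WT (log2 5.94, SE 0.26, adjusted p = 4.87e-13) and 39.7-fold in cKO (log2 5.31, SE 0.24, adjusted p = 7.35e-13). Since the 0 h level was low and uneven, single mice spanned a wide range of TPM ratios, from 37.5 (mouse 6) to 142 (mouse 4) in WT and from 28.7 (mouse 2) to 76.5 (mouse 3) in cKO. From 4 to 8 h Cish fell 1.53-fold in WT (adjusted p = 0.0135) and 1.70-fold in cKO (adjusted p = 0.00312), and from 8 to 24 h it fell 1.80-fold (adjusted p = 0.00101) and 1.49-fold (adjusted p = 0.015). At 24 h it was still 22.3-fold and 15.7-fold above 0 h. The later falls are less secure than the rise: the fall from 4 to 8 h in WT was not called without mouse 4 (adjusted p = 0.0514) or mouse 5 (0.0899), and that from 8 to 24 h in cKO was not called without mouse 1 (0.0567), mouse 2 (0.0809) or the 8 h libraries that lay apart (0.0604). With limma on log2(TPM + 0.1) none of the falls was called, from 4 to 8 h (adjusted p = 0.109 in WT and 0.0526 in cKO) or from 8 to 24 h (0.0562 and 0.172). The cKO fall from 8 to 24 h was also lost with no filter on low counts (0.0981).

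Cish is a known target of STAT5, whose dimers bind the palindrome TTCNNNGAA, so the bases at its start are shown. In the RefSeq promoter table of GRCm38.p6, which spans 250 bases before to 50 bases after each start, Cish has 2 such motifs at bases 1 and 12 after the table's start (chr9:107296659-107296678, plus strand), in capitals here with 2 bases between them. That start is internal: it lies 633 bases inside the annotated gene, in the 5′ UTR of its longest transcript. No such motif begins in the 250 bases before it.
Cish: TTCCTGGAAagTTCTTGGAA
Of the 32851 promoters in the table, 8.3% held at least 1 such motif in these 300 bases and 0.457% held at least 2. The palindrome reads the same on both strands, so it was counted once. The Cish window also holds 1 match to the IRF core described below for Socs1, on the minus strand at base 35. The table holds 4 of the 8 members, Cish, Socs1, Socs3 and Socs4. A match describes the letters and not the binding of a factor.

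Socs1 (chromosome 16, 10782240 to 10785536, minus strand) rose early in both genotypes. In WT mice 4, 5 and 6 it went from 16.2, 8.58 and 10.4 TPM at 0 h to 87.9, 113 and 158 TPM at 4 h, 64.6, 38.2 and 34.5 TPM at 8 h, and by 24 h 55.6, 59.0 and 51.7 TPM. In cKO mice 1, 2 and 3 it went from 12.1, 15.8 and 11.4 TPM to 86.0, 65.7 and 58.6 TPM, then 70.1, 50.2 and 83.7 TPM, and then 59.1, 53.8 and 57.4 TPM. At 4 and 8 h the mice of a genotype were spread widely, while at 24 h all 6 lay between 51.7 and 59.1 TPM. The rise to 4 h was 10.5-fold in WT (log2 3.39, SE 0.25, adjusted p = 2.42e-10) and 5.63-fold in cKO (log2 2.49, SE 0.25, adjusted p = 2.34e-08). In WT it then fell 2.57-fold by 8 h (log2 −1.36, SE 0.22, adjusted p = 3.54e-05), with a TPM ratio of 0.735 in mouse 4, 0.339 in mouse 5 and 0.218 in mouse 6. In cKO the change from 4 to 8 h was −0.03 (95% interval −0.48 to 0.42, adjusted p = 0.934), with 1 of 3 mice higher. Whether the change from 4 to 8 h differed between the genotypes was not tested. From 8 to 24 h no change was called in WT (0.21, interval −0.24 to 0.67) or cKO (−0.28, interval −0.73 to 0.17), and at 24 h Socs1 was 4.73-fold and 4.55-fold above 0 h.

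Socs1 is a known target of interferon gamma through IRF1, and its promoter (RefSeq, GRCm38.p6, chr16:10785537-10785786, minus strand) is shown here. Capitals mark 2 overlapping matches to an IRF core motif, AANNGAAA, which begin 81 and 75 bases before the start.
Socs1: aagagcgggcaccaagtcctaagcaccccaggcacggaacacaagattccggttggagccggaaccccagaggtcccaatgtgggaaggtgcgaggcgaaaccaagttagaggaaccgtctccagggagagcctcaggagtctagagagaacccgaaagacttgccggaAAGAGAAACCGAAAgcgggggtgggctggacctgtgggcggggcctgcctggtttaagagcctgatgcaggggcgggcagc
These 250 bases hold no TTCNNNGAA. On both strands 21.3% of the 32851 promoters held at least 1 IRF core before the start and 4.2% held at least 2. This motif was added after the sequences had been seen. Irf1 itself was at 221 ± 5.96 TPM in WT at 0 h and 573 ± 55.2 TPM at 4 h, and returned to 247 ± 8.62 TPM at 8 h. In cKO Irf1 was likewise called lower from 4 to 8 h, while Socs1 had no called change there (−0.03, adjusted p = 0.934). A link between these genes was not tested.

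Socs3 (chromosome 11, 117966079 to 117970047, minus strand) moved the other way and fell at every step. In WT mice 4, 5 and 6 it was at 51.8, 55.5 and 49.8 TPM at 0 h, 33.1, 33.0 and 41.7 TPM at 4 h, 12.3, 8.91 and 14.7 TPM at 8 h, and by 24 h 5.16, 5.55 and 5.22 TPM. In cKO mice 1, 2 and 3 the values were 47.7, 59.1 and 41.4 TPM, 25.5, 29.6 and 32.1 TPM, 16.4, 8.77 and 13.8 TPM, and 5.41, 5.64 and 4.90 TPM. The libraries of successive times did not overlap in either genotype. The first step was the smallest, with a log2 fold change of −0.45 in WT (SE 0.15, adjusted p = 0.01) and −0.69 in cKO (SE 0.15, adjusted p = 0.000195), and in WT it was not called without mouse 4 (adjusted p = 0.089) or mouse 5 (0.146). It fell a further 2.89-fold and 2.19-fold by 8 h (adjusted p = 3.39e-09 and 1.21e-06) and 2.41-fold and 2.50-fold by 24 h (adjusted p = 4.86e-07 and 2.45e-07). Over 24 h it fell 9.51-fold in WT (adjusted p = 6.86e-18) and 8.81-fold in cKO (adjusted p = 1.71e-17). At 24 h all 6 mice had between 0.0954 and 0.118 of their own 0 h level.

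The window that the RefSeq table gives for Socs3 also holds the STAT palindrome, so it is shown beside that of Cish. The table's start lies 681 bases inside the annotated span, whose 5′ end belongs to a non-coding transcript. The bases before the table's start that no annotated exon covers (GRCm38.p6, chr11:117969452-117969616, minus strand) are thus an intron of that transcript, and the motif, in capitals, begins 154 bases before the table's start.
Socs3: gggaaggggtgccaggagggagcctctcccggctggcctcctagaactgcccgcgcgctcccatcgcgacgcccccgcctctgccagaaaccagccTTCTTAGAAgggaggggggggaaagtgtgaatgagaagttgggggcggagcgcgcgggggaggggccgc
In the 250 bases before the start, 7.02% of the 32851 promoters hold this motif, and Socs3 has no IRF core there. Socs4 has neither motif in its 300 bases.

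Socs2 (chromosome 10, 95385362 to 95417180, minus strand), a known STAT5 target that restrains growth hormone signalling, was the late member. It had 6, 5 and 2 counts in WT mice 4, 5 and 6 and 1, 7 and 1 counts in cKO mice 1, 2 and 3 at 0 h. At 4 h it had 5, 6 and 1 counts against 4, 9 and 3, and at 8 h 1, 0 and 3 counts against 4, 10 and 10. At 24 h the counts were 85, 96 and 84 in WT and 103, 72 and 79 in cKO, which is 6.70, 7.31 and 6.87 TPM and 8.71, 5.40 and 6.39 TPM. A difference between these libraries and the rest was built in by the filter, so its size is given as a description with no test. From 8 to 24 h the fitted log2 fold change was 5.45 in WT, against a group with 4 counts in all, and 2.88 in cKO, against 24 counts. From 0 to 24 h it was 3.95 and 4.71. The sizes are loose: without mouse 5 or mouse 6 the WT value from 8 to 24 h was 4.84 or 6.64, and without mouse 1 or mouse 2 the cKO value from 0 to 24 h was 4.05 or 6.26. No change up to 8 h was called in either genotype.

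Socs4 (chromosome 14, 47276931 to 47296102, plus strand), a member with a long N-terminal region that has been linked to the EGF receptor, rose and stayed up. In WT mice 4, 5 and 6 it was at 5.85, 3.65 and 4.16 TPM at 0 h, 10.3, 13.1 and 17.5 TPM at 4 h, 18.3, 13.7 and 6.83 TPM at 8 h, and by 24 h 17.9, 16.7 and 16.8 TPM. In cKO mice 1, 2 and 3 it was at 4.57, 5.82 and 6.91 TPM, 11.9, 8.17 and 7.70 TPM, 13.6, 17.6 and 18.3 TPM, and 20.5, 17.5 and 17.5 TPM. The WT mice had opposite orders at 4 and 8 h, mouse 6 being highest and then lowest, and the same held for Socs1. In WT the rise was made by 4 h (3.21-fold, log2 1.68, SE 0.27, adjusted p = 2.79e-06), with no call from 4 to 8 h (−0.04, interval −0.52 to 0.45). In cKO it came in 2 steps, 1.73-fold by 4 h (adjusted p = 0.0108) and 1.83-fold from 4 to 8 h (adjusted p = 0.00434). The first of these was not called without mouse 1 (adjusted p = 0.254) and the second not without mouse 2 (0.112) or mouse 3 (0.0993). Without the 4 h library of mouse 3 the steps were 0.92 and 0.74 on the log2 scale, both called (adjusted p = 0.00639 and 0.029). By 24 h Socs4 was 3.93-fold above 0 h in WT and 3.42-fold in cKO (adjusted p = 4.45e-08 and 1.16e-07).

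Socs5, Socs6 and Socs7 changed little by comparison. Socs5 (chromosome 17, 87107679 to 87137839, plus strand), which has a long N-terminal region like Socs4, ranged from 4.79 to 7.93 TPM over the 18 libraries up to 8 h and from 3.46 to 3.99 TPM in the 6 at 24 h, with no overlap. It fell 1.66-fold in WT and 1.72-fold in cKO from 8 to 24 h (adjusted p = 0.000489 and 0.00021). Its call in WT at 4 h was marginal (log2 0.40, adjusted p = 0.0439) and held in 4 of 16 alternatives. It was lost with mouse as a block (log2 0.39, adjusted p = 0.0589) and without any one of mice 1, 2, 5 and 6 (0.0504 to 0.393). From 0 to 24 h it was called lower in WT (−0.51, adjusted p = 0.00806), though not without mouse 4 (0.119) or with no filter on low counts (0.131). In cKO it stood at −0.35 (interval −0.70 to −0.00, adjusted p = 0.0645).

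Socs6 (chromosome 18, 88665224 to 88927481, minus strand), reported to bind insulin receptor substrates and the kinase KIT, was at 8.23 to 11.1 TPM at 0 h, 9.82 to 14.0 TPM at 4 h, 8.68 to 10.7 TPM at 8 h and 5.52 to 7.63 TPM at 24 h over both genotypes. It rose by 0.45 on the log2 scale to 4 h in both WT (adjusted p = 0.0114) and cKO (adjusted p = 0.0106). These calls were lost without mouse 5 (0.0731) or mouse 6 (0.286) in WT, and without mouse 2 (0.085) or mouse 3 (0.0754) in cKO. From 8 to 24 h it fell 1.61-fold and 1.74-fold (adjusted p = 0.000305 and 5.27e-05), with no overlap of libraries in either genotype. Over the 24 h it fell by 0.46 and 0.68 on the log2 scale (adjusted p = 0.00838 and 0.000169). In WT this was not called without mouse 3 (0.0503) or with no filter on low counts (0.159).

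Socs7 (chromosome 11, 97362551 to 97398542, plus strand), which carries a nuclear localisation signal and binds adaptor proteins, rose and came back. Its levels were 2.42 to 4.21 TPM at 0 h, 4.51 to 6.13 TPM at 4 h, 4.44 to 6.16 TPM at 8 h and 3.21 to 4.28 TPM at 24 h. The rise to 4 h was 1.63-fold in WT and 1.66-fold in cKO (adjusted p = 0.000433 and 0.000343), without overlap of libraries. It fell 1.48-fold and 1.40-fold from 8 to 24 h (adjusted p = 0.00335 and 0.0109). The cKO call was lost without mouse 2 (0.103) or mouse 3 (0.106), and the WT call without mouse 5 (0.0524). Limma on log2(TPM + 0.1) lost both (0.0546 in WT and 0.0561 in cKO), and the calls held in 13 and 12 of 16 alternatives. At 24 h WT was back at its 0 h level within an interval of −0.33 to 0.34, and cKO was called higher by 0.41 (adjusted p = 0.0243). That call was lost without mouse 1 (0.342) or mouse 2 (0.0524). Limma on log2(TPM + 1) (0.119) and on log2(TPM + 0.1) (0.108) also lost it, as did a fit of only the groups compared (0.0702). In all it held in 10 of 15 alternatives.

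**Figure D3:**
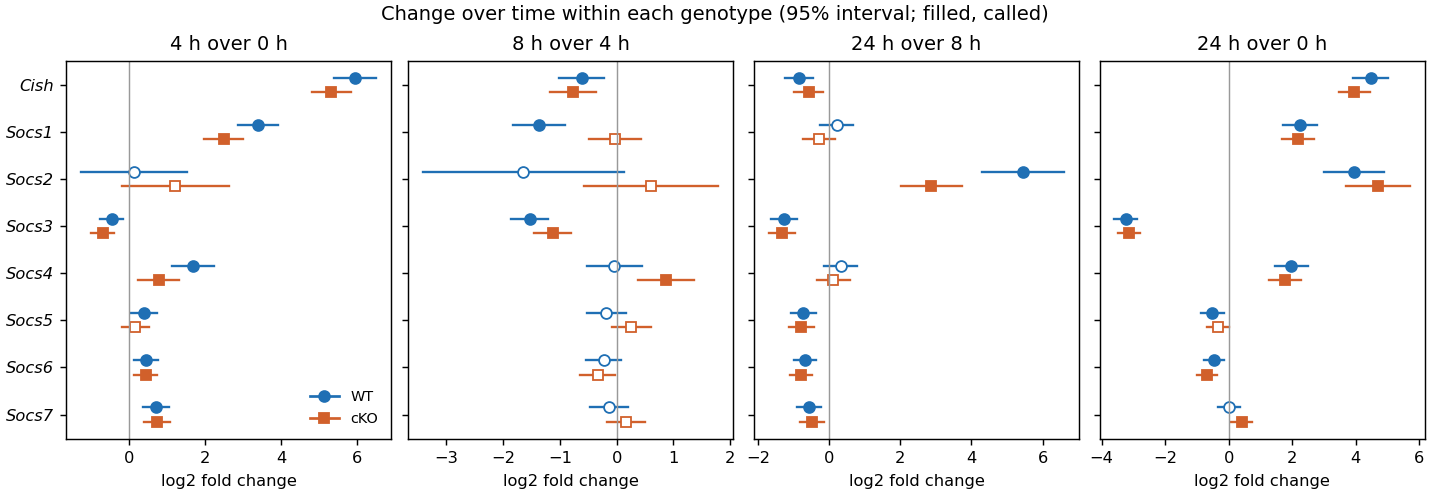
Fitted log2 fold changes of the 8 members between times, with a panel for each pair of times and its own horizontal axis. Circles are WT and squares are cKO, bars are 95% intervals, and filled symbols passed an adjusted p of 0.05, which the filter on low counts built in for Socs2 at 24 h. Cish and Socs1 stand farthest to the right at 4 h over 0 h, and Socs2 at 24 h over 8 h (5.45 in WT and 2.88 in cKO).

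No member was called between the genotypes at any time. At an unadjusted p under 0.05 there were 1, 3, 2 and 1 of the 8 members at 0, 4, 8 and 24 h, beside 845, 1354, 1139 and 423 of all genes. Of the 11470 genes, edgeR called 0.445% at 0 h, 0.82% at 4 h, 0.183% at 8 h and 0.105% at 24 h, and 0 of 8 members lies close to these shares. DESeq2 called 1 member at 4 h and none at the other times. Interaction terms, which set the genotype difference at 4, 8 or 24 h against that at 0 h, called no member. Unadjusted, 2, 2 and 0 of the 8 members had a p under 0.05 in them. They called 0.00872% of genes at 4 h, 0.00872% at 8 h and 0.0174% at 24 h, and DESeq2 called no member in them either.

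The nearest to a call was Socs1 at 4 h, which was at 70.1 ± 14.2 TPM in cKO and 120 ± 35.4 TPM in WT. All 3 cKO mice (58.6 to 86.0 TPM) were below all 3 WT mice (87.9 to 158 TPM), and the nearest of each nearly met. The log2 fold change was −0.80 (SE 0.21, interval −1.25 to −0.36, adjusted p = 0.0904). DESeq2 (−0.80, adjusted p = 0.0202), leaving out the filter on low counts (−0.80, adjusted p = 6.52e-05) and leaving out mouse 4 (−0.97, adjusted p = 0.00255) each called it, and without the 4 h library of mouse 3 it was −0.68 (adjusted p = 0.298). Over 16 alternatives the adjusted p ran from 6.52e-05 to 0.403. At 8 h the sign was the other way, 68.0 ± 16.9 TPM in cKO and 45.7 ± 16.5 TPM in WT (log2 0.53, interval 0.07 to 0.99, adjusted p = 0.434), and the mice overlapped. At 24 h the genotypes stood at 56.8 ± 2.70 and 55.4 ± 3.65 TPM (0.04, interval −0.41 to 0.48). The interaction at 4 h was −0.90 (SE 0.36, adjusted p = 0.626). Of the summed markers of other cells at 4 h, those of dendritic, NK and erythroid cells were higher in cKO than in WT. Those of B cells (5.14 to 7.25 TPM in cKO against 5.56 to 8.51 TPM in WT), CD4 T cells (59.06 to 89.7 against 83.48 to 87.15 TPM) and myeloid cells (2.56 to 2.95 against 2.05 to 2.61 TPM) overlapped. The 6 dendritic cell genes, mostly Xcr1, summed to 5.09 to 6.85 against 3.04 to 3.35 TPM in WT, where Cd209a was at 0. The 5 NK cell genes summed to 0.890 to 1.59 against 0.180 to 0.680 TPM, with Klra8 and Klra4 at 0 in both genotypes and Klra7 at 0 in WT. The 5 erythroid genes summed to 0.500 to 21.5 against 0 to 0.450 TPM, with Hba-a2 and Hbb-b1 at 0 in both, Hba-a1 at 0 in WT and Hbb-b2 at 0 in cKO. The erythroid excess lay mostly in a single cKO library, and the lowest cKO sum (0.500 TPM) was close to the highest in WT (0.450 TPM). The part of any of these markers in the Socs1 result was not tested.

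Cish was higher in cKO than WT on average at all times. At 4, 8 and 24 h each cKO mouse lay above each WT mouse, and at 0 h cKO mouse 3 (4.36 TPM) lay below WT mice 5 and 6. The log2 fold changes were 0.92 at 0 h (interval 0.29 to 1.56, adjusted p = 0.351), 0.30 at 4 h (−0.10 to 0.69, adjusted p = 0.576), 0.14 at 8 h (−0.25 to 0.54, adjusted p = 0.816) and 0.41 at 24 h (0.01 to 0.82, adjusted p = 1). At 0 h it was called without mouse 3 (1.24, adjusted p = 0.0128), and at 24 h when the 2 groups were fitted alone (0.41, adjusted p = 5.88e-05). Il2ra, the alpha chain of the IL2 receptor, was at a higher mean level in cKO at 4, 8 and 24 h (116 against 86.7, 102 against 85.8 and 77.0 against 59.7 TPM) and was not called at 4 h (0.38, adjusted p = 0.0789), 8 h (0.20, adjusted p = 0.534) or 24 h (0.37, adjusted p = 0.454). Il2 itself was lower in cKO at 4 h (−0.32, adjusted p = 0.577) and 8 h (−0.46, adjusted p = 0.455), and was not called. A link of either gene to Cish was not tested.

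Socs2 at 8 h rested on 24 counts in cKO and 4 in WT, 0.460, 1.09 and 1.35 against 0.140, 0 and 0.300 TPM. No libraries overlapped, and the log2 fold change was 2.55 (interval 1.00 to 4.10, adjusted p = 0.199). It was 1.81 without the 8 h libraries of mice 2 and 5 (adjusted p = 0.554). Socs3 at 4 h was at 29.1 ± 3.36 TPM in cKO and 35.9 ± 4.99 TPM in WT (−0.35, interval −0.66 to −0.04, adjusted p = 0.341), and Socs4 at 4 h at 9.25 ± 2.30 and 13.6 ± 3.66 TPM (−0.59, interval −1.09 to −0.09, adjusted p = 0.32). On TMM-scaled counts, the libraries of the genotypes did not overlap for 4 members at 4 h (Cish higher, Socs1, Socs3 and Socs7 lower), where 16% of all genes did not overlap. At 8 h this held for 2 members (Cish and Socs2 higher) beside 10.5% of genes, at 24 h for 1 (Cish higher) beside 13.5%, and at 0 h for 0 beside 13.5%. At 24 h the intervals of Socs3, Socs4, Socs5, Socs6 and Socs7 lay within −0.44 to 0.55 on the log2 scale, and that of Socs2 within −0.69 to 0.64.

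**Figure D4:**
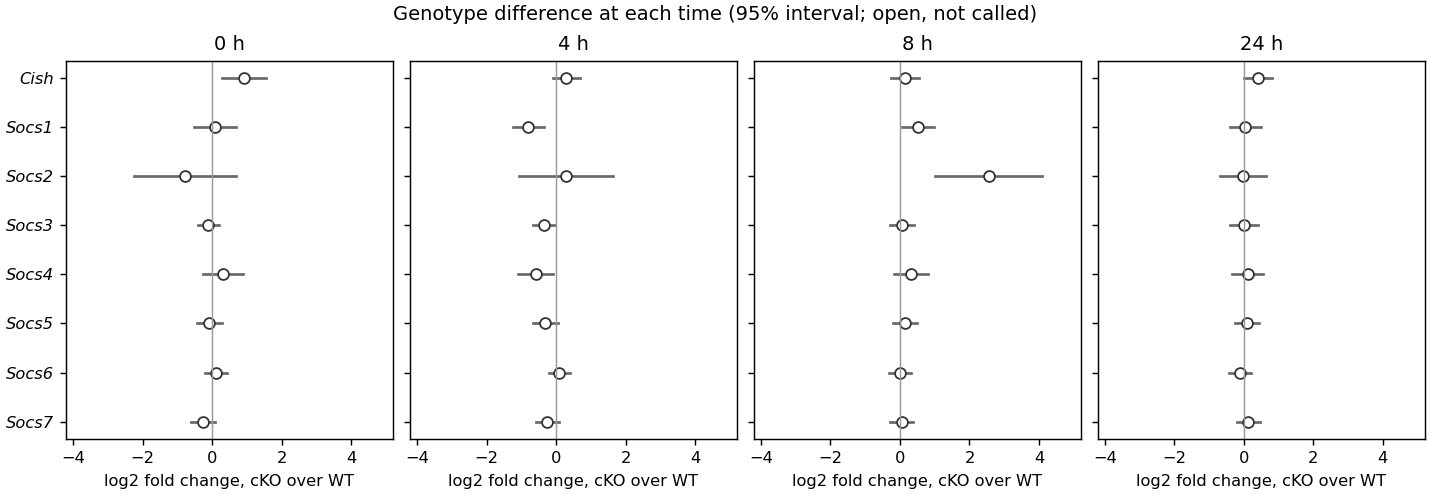
Fitted log2 fold change of cKO over WT for the 8 members at 0, 4, 8 and 24 h. Bars are 95% intervals and open symbols mark values that did not pass an adjusted p of 0.05, which is all of them. Socs1 lies left of 0 at 4 h (−0.80) and right of 0 at 8 h (0.53), and Socs2 has the widest intervals up to 8 h.

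The rest of the pathway was described from lists of its parts, whose counts stand beside the shares of all genes called. From 0 to 4 h these were 30% higher and 29.1% lower in WT and 29.6% and 27.6% in cKO, and from 0 to 24 h 36.9% and 40.1% in WT and 37.3% and 39% in cKO. Among the 11 JAK kinases and STAT factors, 7 rose and 2 fell from 0 to 4 h in both genotypes (median log2 fold change 0.77 in WT and 0.74 in cKO). From 4 to 8 h none rose and 10 fell in WT and 9 in cKO, beside 19.7% and 19.6% of all genes called lower. At 24 h 2 were above 0 h in both, and 7 were below in WT and 6 in cKO (median −0.40 and −0.44). Stat5a, which carries the IL2 signal, went from 40.3 ± 6.98 to 164 ± 5.62 TPM in WT and from 40.9 ± 2.58 to 175 ± 4.84 TPM in cKO by 4 h and was at 128 ± 6.85 and 142 ± 4.14 TPM at 24 h. Jak1 and Jak3, the kinases of the common gamma chain receptors, both fell over 24 h. Jak1 went from 241 ± 8.87 to 46.6 ± 0.825 TPM in WT (log2 −2.32, adjusted p = 1.29e-20), and Jak3 from 92.7 ± 10.2 to 39.4 ± 1.48 TPM (−1.19, adjusted p = 1.08e-13).

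Of 18 cytokine receptor genes tested out of 19, 7 rose and 7 fell to 4 h in WT and 9 rose and 4 fell in cKO, and at 24 h 5 were above and 13 below 0 h in both genotypes (median −1.24 in WT and −1.08 in cKO). Il2ra was at 0.327 ± 0.0896 TPM in WT at 0 h and at 86.7 ± 12.9 TPM at 4 h. It thus passed the filter through the later groups where it is high. The receptor counts and medians include it, but its rise adds no support to them. The IL6 receptor genes, whose signal SOCS3 restrains, also fell over 24 h. Il6st, which encodes gp130, went from 47.3 ± 3.69 to 4.20 ± 0.0814 TPM in WT over 24 h (−3.44, adjusted p = 7.46e-23) and from 37.6 ± 1.95 to 4.27 ± 0.648 TPM in cKO, although at 4 h it was called higher in cKO (0.28, adjusted p = 0.0383) and lower in WT (−0.28, adjusted p = 0.034). The interaction at 4 h was 0.56 (SE 0.16) and not called (adjusted p = 0.497). Il6ra, the IL6 receptor alpha chain, went from 31.4 ± 4.24 to 0.940 ± 0.279 TPM in WT and from 32.7 ± 3.73 to 0.973 ± 0.384 TPM in cKO. Being low at 24 h, Il6ra may have passed the filter only through the earlier groups where it is high. The receptor counts and medians include Il6ra, but its fall adds no support to them. Of 14 ligand genes 5 passed the filter, and at 4 h Il2, Il3, Lif and Ifng were higher and Osm lower than at 0 h in both genotypes. The first 4 were under 0.7 TPM in every 0 h library and so passed the filter only through the later groups where they are high, which leaves their count no weight. Il2 was at 0.0767 ± 0.133 TPM in WT at 0 h and at 0 in all 3 cKO libraries, and at 1198 ± 277 and 989 ± 89.0 TPM at 4 h. Ifng reached 243 ± 36.0 TPM in WT and 461 ± 54.7 TPM in cKO at 4 h, and was called higher in cKO at 4 h (log2 0.88, adjusted p = 0.0335) and 24 h (1.09, adjusted p = 0.0268).

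Genes for the ubiquitin ligase that the SOCS box recruits were taken next. Of 10 partner genes, 5 rose and 1 fell to 4 h in both genotypes, and 9 were above 0 h and none below at 24 h (median 0.73 in WT and 0.74 in cKO, beside −0.08 and −0.07 for all genes). Cul5, the cullin of most SOCS ligases, went from 6.39 ± 0.526 to 12.7 ± 1.67 TPM in WT over 24 h (1.04, adjusted p = 1.19e-08), Tceb1 (elongin C) from 69.8 ± 15.3 to 221 ± 14.2 TPM (1.70, adjusted p = 9.60e-14), and Rnf7, the RING partner of CUL5, from 118 ± 5.50 to 202 ± 6.34 TPM (0.81, adjusted p = 2.01e-09). Arih2, a ligase that works with CUL5, was the exception in time: it peaked at 212 ± 14.0 TPM at 4 h in WT and was back at 40.0 ± 1.73 TPM at 24 h, from 48.2 ± 2.83 TPM at 0 h (−0.22, adjusted p = 0.057).

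Of 26 other genes for SOCS-box proteins 14 were tested. In WT 3 rose and 4 fell to 4 h and in cKO 2 and 4, and at 24 h 2 were above and 8 below 0 h in WT and 1 and 8 in cKO (median −0.56 and −0.53). Wsb1 rose to 4 h (1.70 in WT and 1.34 in cKO, adjusted p = 2.77e-16 and 9.85e-14), and Asb13 was lower at 24 h (−1.71 and −1.86, adjusted p = 1.57e-12 and 1.44e-13). Of 11 other inhibitors of the pathway 6 rose and 5 fell to 4 h in WT and 6 and 4 in cKO, larger parts than the shares of all genes called at that time. At 24 h 4 were above and 5 below 0 h in both genotypes, close to the shares of all genes. Ptpn6, the phosphatase SHP-1, fell from 524 ± 62.3 to 244 ± 18.9 TPM in WT by 4 h (−1.01, adjusted p = 9.08e-12), while Ptpn11, the phosphatase SHP-2, rose from 3.35 ± 0.155 to 7.59 ± 0.484 TPM (1.28, adjusted p = 1.15e-09). Usp18, which holds back the type I interferon receptor, fell from 35.0 ± 3.16 to 4.57 ± 0.969 TPM (−2.85, adjusted p = 6.08e-08).

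The last lists held genes downstream of the cytokines. Of 10 known STAT5 targets, 7 rose and 3 fell to 4 h in both genotypes (median 1.96 in WT and 1.95 in cKO), and at 24 h 7 were above and 2 below 0 h in WT and 8 and 2 in cKO. Il2ra was near the floor at 0 h and passed the filter through the later groups. These counts and medians include it, but its rise was built in and adds no support to them. Gzmb, with an SE between genotypes of 0.74 at 0 h against 0.17 at 4 h, may share this limit. Bcl2l1, which encodes the survival protein BCL-XL, rose by 4.62 and 4.28 on the log2 scale to 4 h (adjusted p = 9.48e-18 and 2.11e-17) and Myc by 3.11 and 2.93 (adjusted p = 4.37e-24 and 1.75e-23). Of 12 interferon response genes 5 rose and 6 fell to 4 h in both genotypes, and at 24 h 1 was above and 9 were below 0 h in WT and 0 and 9 in cKO (median −2.91 and −2.63). At 4 h Gbp3 rose 2.29 in WT on the log2 scale (adjusted p = 1.61e-07) and Mx1 fell by 4.27 (adjusted p = 2.23e-10), and at 24 h Irf7 had gone from 81.8 ± 7.84 to 0.500 ± 0.184 TPM in WT. Irf7 was thus near the floor at 24 h and may have passed the filter only through the earlier groups where it is high. The counts and medians include Irf7, but its fall adds no support to them, and other genes low at 24 h may share this limit. Across the 8 lists, the genes called between genotypes were Ifng at 4 and 24 h, the STAT5 targets Gzmb at 4, 8 and 24 h and Prf1 at 4 h, and the interferon gene Irf7 at 8 h, each higher in cKO. Gzmb, granzyme B, differed by 1.77, 1.87 and 1.52 on the log2 scale (adjusted p = 8.45e-06, 5.28e-06 and 9.39e-05). Il2ra and Osm stand in 2 lists each.

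Among the members, group means followed each other most closely for Cish and Socs1 (Pearson r = 0.96 over the 8 group means of log2 scaled counts) and for Socs5 and Socs6 (0.87), and ran most opposite for Socs2 with Socs6 (−0.85) and Socs3 with Socs4 (−0.83). These 8 points share 6 mice, a time course and library scaling, so they describe the shape and carry no test. Socs2 passed the filter only through the 24 h libraries, so its r with genes that stand apart at 24 h was largely built in. This covers its value with Socs6 and those with its closest genes below. Among 7143 other genes with at least 10 TPM in a group, the closest in shape to Cish were BC027231 (0.997), Smim3 (0.996) and Lrig1 (0.996), and to Socs1 Scyl2 (0.979), Nfkb2 (0.976) and Gch1 (0.974). Nfkb2, an NF-kB subunit, went from 40.8 ± 3.58 to 318 ± 15.7 TPM in WT by 4 h and to 208 ± 8.75 TPM at 24 h. Closest to Socs2 were Kif11 (0.993), Sgol1 (0.990) and Cenpw (0.990). Kif11, a kinesin of the mitotic spindle, was at 0.353 ± 0.159 TPM in WT at 8 h and 35.8 ± 2.05 TPM at 24 h. Closest to Socs3 were Rps19 (0.997), Bnip3l (0.996) and Cd247 (0.996), the last the zeta chain of the T cell receptor complex, and to Socs4 Exoc5 (0.999), Tmed2 (0.995) and Sh3glb1 (0.993). For Socs5 they were Ccdc23, Abtb2 and Wac (0.971 to 0.965), for Socs6 Plgrkt, Pwwp2a and Pdlim5 (0.996 to 0.995), and for Socs7 Atp6v0c, Zfp553 and Dda1 (0.995 to 0.985).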

How the data were processed

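The submitters' processing notes name STAR, RSEM, DESeq2 and the build mm10, without versions. A deposited file holds 1 library, with an expected count (an estimate that need not be whole) and a TPM value for each gene, per the file headers. After rounding, expected counts were analysed with edgeR 4.0.16 under R 4.3.3: filterByExpr over the 8 groups, TMM scaling and 1 robust quasi-likelihood fit over all 24 libraries gave 15 comparisons (4 of genotype, 8 of time and 3 interactions). Tests are two-sided, with Benjamini-Hochberg adjustment over 11470 genes in each comparison. The SE was derived from the log2 fold change and its F statistic, and intervals are 95% t intervals. Levels are mean TPM ± SD over 3 mice, which the labels number as separate animals.

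Rn45s, a ribosomal RNA precursor, took 7.39 to 20.6% of a library and was kept. Each mouse gave a library at every time, so mouse pairs the times. Deviations from group means correlated by −0.13 to 0.19 (median 0.03) over 36 same-mouse pairs and by −0.18 to 0.11 (median −0.01) over 72 others. Alternatives used DESeq2 1.42.0, limma 3.58.1 on log2(TPM + 1) and log2(TPM + 0.1), other scalings and filters, a mouse block, and left-out libraries. Members and lists were chosen with earlier results of these data known. All 8 members are described; from a pathway list up to 4 called genes with the smallest adjusted p in a comparison could be named. Osm, and the values of named genes in other comparisons (Irf1 at 8 h, Arih2 at 24 h, Il6st at 4 h, Il2ra and Il2 between genotypes), were chosen after their values were seen. Genes like a member are the 3 with the highest Pearson r over group means, gene models named Gm or Rik passed over. Smart-Seq2 is not stranded, so overlapping genes on opposite strands cannot be told apart. Promoters are RefSeq's, GRCm38.p6; gene positions are GENCODE vM21, GRCm38, the assembly that mm10 names.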

Additional observations from a re-analysis of the deposited data

How the results depend on the processing

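No result changed sign while called. The number of members called between genotypes, 0 at all 4 times, became 1 at 4 h with DESeq2 and with no filter on low counts (Socs1) and 1 at 24 h with only the groups compared (Cish). Without 1 mouse each in turn it ran from 0 to 1 at 0 h (Cish, without mouse 3) and from 0 to 1 at 4 h (Socs1, without mouse 4). In WT from 0 to 4 h the 7 called became 4 without mouse 5, and 4 to 7 were called over the mice left out. Mouse as a replicate block ended 1 call, Socs5 in WT at 4 h (log2 0.39, adjusted p = 0.0589), and changed no other. Of the single-member values under an alternative, 1767 kept direction and call, 49 lost the call, 11 gained it, and 60 changed sign without being called. Calls of Cish, Socs1, Socs3 and Socs4 from 0 to 24 h and of Cish and Socs1 from 0 to 4 h held in every alternative run, in both genotypes; among smaller changes, Cish from 8 to 24 h in cKO held in 10 of 16. Socs2 in WT from 4 to 8 h was called without mouse 6 (−3.24, adjusted p = 0.0337). Limma on log2(TPM + 1) gave Socs2 from 8 to 24 h as 2.80 in WT and 2.00 in cKO, since the pseudocount shrinks low values.

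Counts over all genes moved more in the genotype comparisons than in those of time: 51 at 0 h ran from 21 to 136 over the alternatives, 94 at 4 h from 32 to 249, 21 at 8 h from 7 to 135 and 12 at 24 h from 6 to 100, while interactions ran from 0 to 45. At 4 h the split was 50 higher and 44 lower, 91 and 158 with no filter, and 47 and 109 without mouse 4. From 8 to 24 h in WT it was 2828 and 3906, and 3366 and 3079 with limma on log2(TPM + 1). The median of all genes moved by over 0.1 on the log2 scale only in comparisons with 24 h, at most 0.16.

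With 3 mice a group, genotype differences under about the width of the intervals could not be seen, and Socs2 before 24 h rests on 0 to 10 counts a library. Intervals cover the spread between these mice. TPM and scaled counts are shares, so RNA per cell was not measured.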
